A study of Homo sapiens with 6 samples.

Results

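The death-associated protein kinases are a family of serine/threonine kinases encoded in the human genome by DAPK1, DAPK2, DAPK3, STK17A (DRAK1) and STK17B (DRAK2). The 5 genes were chosen by family membership, and the family itself was selected on measured values of the comparison described here, since DAPK2 had been seen among the large differences. The differences of the 5 genes between groups are therefore given as a description, without a test. All 5 were among the 61552 gene identifiers in the count tables, and 4 of them (DAPK2, DAPK3, STK17A and STK17B) were among the 17084 genes that passed the filter on low counts, while DAPK1 did not. The members that passed are not the whole family, and what follows keeps DAPK1 apart.

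MDA-MB-231, an established human triple-negative breast cancer cell line, was treated for 24 h with VNLG-152R at 10 μM, or with DMSO as the vehicle control. VNLG-152R belongs to the retinamides, small molecules derived from all-trans retinoic acid, and was developed as a degrader of the MNK kinases. RNA was measured by strand-specific sequencing of polyA-selected RNA in 3 samples per group. Treatment was done in triplicate, and the sources used here do not say whether on separate days or passages. Each p-value therefore reflects the variation among these 6 samples, part or all of which may be technical.

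Kinases of this family share a catalytic domain related to that of the calmodulin-dependent kinases. DAPK1 and DAPK2 carry a calmodulin-binding autoregulatory segment, DAPK3 (ZIPK) has a leucine zipper in its place, and the STK17 kinases share the catalytic domain only. They phosphorylate myosin light chain and take part in membrane blebbing, autophagy and cell death. DAPK1 has long been studied as a tumor suppressor that is silenced by promoter methylation in many cancers, DAPK2 is known from granulocyte differentiation and autophagy, and STK17B from the signaling threshold of T cells.

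Between 60122936 and 68583224 counts were assigned to genes per control library, and between 69923839 and 82151816 per treated library, so the treated group was the deeper one throughout. Levels are given as CPM, counts per 1e6 counts in the genes that passed the filter, normalized by TMM. The markers of the line had high levels, with VIM at 4911 to 5166 CPM in the control group and 3397 to 4323 CPM in the treated group. The sum of the 5 markers, most of it VIM, was 7251 to 7658 CPM and 5317 to 6771 CPM in these groups, which did not overlap. The markers did not move together. KRT18 was also lower in the treated group (594 to 642 against 396 to 537 CPM). EGFR was higher (240 to 303 against 306 to 369 CPM), and the groups overlapped for CD44 and KRT8. The part of these differences in the results was not tested. ESR1 had 0 to 8 counts and CDH1 stayed under 0.70 CPM, while ERBB2 was at 84.3 to 118 CPM. PTPRC, CD3E and DCN, which mark leukocytes and fibroblasts, had 0 to 2 counts per library. Of the same list, LYZ was at 0.49 to 0.65 CPM and COL1A1 at 15.1 to 18.4 CPM, without separation of the groups.

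DAPK2 was the member whose RNA differed most between the groups. The gene (ENSG00000035664) lies on the minus strand of chromosome 15 at 63907036 to 64072033 in GRCh38. Its span of 164998 bases holds 13 annotated transcripts that start at 10 positions, and the counts per gene do not tell which of them was made. RefSeq places 1 start of DAPK2 in its promoter table, and the 250 bases before it, at chr15:64046486-64046735 on the minus strand (GRCh38.p14), are shown because DAPK2 is the gene with the largest difference in the family. They lie inside the GENCODE span of the gene, downstream of its outermost 5′ end, and precede 1 of its starts only. Capitals mark a match to a C/EBP element (TTGCNNAA) near the 5′ end and a GC box (GGGCGG, read on the opposite strand), to which factors of the Sp1 and KLF type bind, at the 3′ end.
DAPK2 upstream region: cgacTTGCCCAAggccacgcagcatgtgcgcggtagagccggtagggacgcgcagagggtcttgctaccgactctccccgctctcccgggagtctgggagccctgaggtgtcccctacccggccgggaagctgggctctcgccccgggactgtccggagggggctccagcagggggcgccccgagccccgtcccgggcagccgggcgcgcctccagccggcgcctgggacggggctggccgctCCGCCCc

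This stretch has a GC content of 76.4% and 27 CpG dinucleotides, and 82.3% of 35116 RefSeq promoters of the same length hold fewer CpG. The median promoter has 11 CpG and a GC content of 58.0%. A C/EBP match occurs on either strand in 9.05% of all promoters and a GC box in 42.6%. The windows of the other members were likewise rich in CpG, with 26 and 32 at the 2 starts of DAPK1, 31 at DAPK3, 32 at STK17A and 35 at STK17B. None of these windows matched TATAAA (10.7% of all promoters), the E2F element TTTNGCGC (1.51%), the nuclear receptor element AGGTCA (12.1%), the AP-1 element TGANTCA (6.57%) or the cyclic AMP element TGACGTCA (1.65%). GC boxes were present in every window of the family. DAPK2 had 1, the 2 starts of DAPK1 had 2 and 1, DAPK3 had 1, STK17A 7 and STK17B 3. The C/EBP match was found in the DAPK2 window and in no other window of the family, and a match is a description of letters, not a site.

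DAPK2 had 59, 76 and 71 counts in the 3 vehicle control libraries and 321, 427 and 372 counts in the 3 VNLG-152R libraries. Normalized to depth, the controls were at 0.97, 1.26 and 1.04 CPM, and the treated libraries at 4.75, 5.58 and 4.50 CPM. Every treated library lay far above every control library. The mean was 1.09 ± 0.152 CPM in controls and 4.94 ± 0.570 CPM in treated cells (SD, n = 3 each), which is 4.53-fold, or 2.18 on the log2 scale with a standard error of 0.16. By log2 fold change DAPK2 took place 17 from the top among the 17084 genes tested, of which 23 exceeded 2. The spread within groups was similar in relative terms, with a coefficient of variation of 14.0% in controls and 11.5% with VNLG-152R.

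Separation of the groups as such was not rare. In 15.1% of all tested genes every VNLG-152R library was above every control library, and among the 4 tested members this held for DAPK2 alone. The treated libraries had the same order in DAPK2 RNA as in the share of read pairs that the authors' counting assigned to no feature. In the controls the order was the reverse. This share was 3.36% to 5.05% in the treated group against 2.63% to 3.17% in the control group, and the part of this share in the difference was not tested. Without VNLG-152R replicate 2, the library with the highest share, the log2 fold change was 2.08. The other treated libraries, at 3.52% and 3.36%, still lay above every control library in this share. The share and the treatment can therefore not be told apart by leaving out that library. Of the exons of DAPK2, 0.970% lie under an antisense gene, ENSG00000259351, that had 0 counts in every library.

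DAPK3, the member with the highest level per kilobase of exon in these cells, had nearly the same mean in both groups. The gene (ENSG00000167657) lies on the minus strand of chromosome 19 at 3958453 to 3971123. Vehicle controls were at 97.3, 102 and 104 CPM and VNLG-152R libraries at 115, 95.1 and 96.6 CPM. The groups overlapped, and VNLG-152R replicate 1 stood above the other 5 libraries. The control mean was 101 ± 3.59 CPM and the treated mean 102 ± 11.0 CPM (SD, n = 3 each), so the log2 fold change was 0.01 (standard error 0.09). Its sign turned when either replicate 1 was left out, to -0.08 for the treated one and -0.02 for the control one. MIR637 shares 2.79% of its exons on the same strand and had 0 counts.

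STK17A (ENSG00000164543) lies on the plus strand of chromosome 7 at 43582758 to 43650713. Its levels were 80.5, 70.6 and 66.6 CPM in controls and 55.5, 76.9 and 68.9 CPM with VNLG-152R. The groups overlapped, with the lowest value in VNLG-152R replicate 1. The log2 fold change was -0.11 (standard error 0.12) between means of 72.6 ± 7.17 and 67.1 ± 10.8 CPM (SD, n = 3 each), and 0.01 without VNLG-152R replicate 1. COA1, an expressed gene on the opposite strand with 3086 to 5100 counts, covers 3.04% of the STK17A exons.

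STK17B (ENSG00000081320) lies on the minus strand of chromosome 2 at 196133566 to 196176503. It was at 67.7, 63.1 and 62.7 CPM in controls and at 53.2, 68.2 and 68.3 CPM with VNLG-152R. Again the groups overlapped and VNLG-152R replicate 1 was the lowest library. The control mean was 64.5 ± 2.80 CPM and the treated mean 63.2 ± 8.71 CPM (SD, n = 3 each), so the log2 fold change was -0.03 (standard error 0.10). Leaving out replicate 1 gave 0.09 for the treated group and 0.01 for the control group, so no direction was shown for this gene.

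Compared with all tested genes, whose median log2 fold change was -0.0024, the 3 abundant members lay in the middle of the distribution. A lower log2 fold change was found in 52.5% of tested genes for DAPK3, 31.4% for STK17A and 45.9% for STK17B, against 99.9% for DAPK2. The library VNLG-152R replicate 1 was the highest of all for DAPK3 and the lowest of all for both STK17 genes.

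DAPK1 (ENSG00000196730), on the plus strand of chromosome 9 at 87497228 to 87708633, was close to undetected. It had 2, 0 and 1 counts in vehicle controls and 1, 0 and 6 counts with VNLG-152R. At these counts a difference was not detectable, and no fold change is given. The nearest tested gene, the lysosomal protease gene CTSL, lies 16.9 kb away and was at 256 ± 8.44 CPM in controls. Near-zero counts also occurred for genes that most cells use, since HSF1 had 0 to 2 counts per library, AATF 0 to 1 and RPS6KA1 0 in each. Low DAPK1 RNA and a loss of its reads in the authors' counting can therefore not be told apart.

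**Figure D1:**
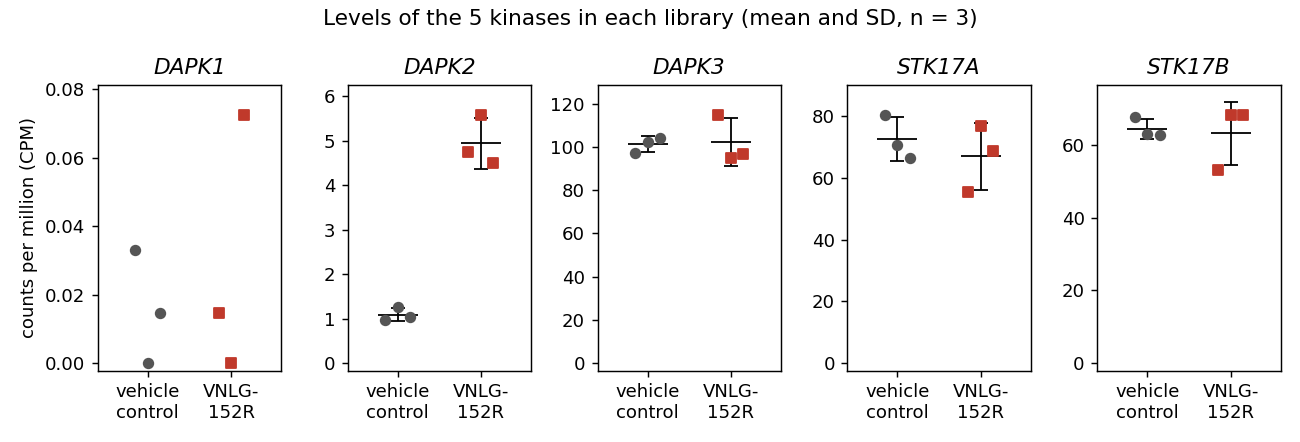
TMM-normalized CPM (vertical axes, each with its own scale) of DAPK1, DAPK2, DAPK3, STK17A and STK17B in the 3 vehicle control libraries (gray circles) and the 3 VNLG-152R libraries (red squares), in the order of replicates 1 to 3 from left to right. Horizontal bars and whiskers are the mean and SD (n = 3), not drawn for DAPK1, which had 0 to 6 counts. DAPK2 lay between 0.97 and 1.26 CPM in controls and between 4.50 and 5.58 CPM in treated cells, and the groups of the other members overlap.

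Levels of different genes were compared per kilobase of exon, because a longer transcript yields more reads. In vehicle controls DAPK3 was at 28.6 ± 1.01 CPM per kilobase, STK17A at 14.2 ± 1.41, STK17B at 9.80 ± 0.427, DAPK2 at 0.0802 ± 0.0112 and DAPK1 at 0.00178 (SD, n = 3). With VNLG-152R the levels were 28.8 ± 3.11 CPM per kilobase for DAPK3, 13.2 ± 2.12 for STK17A, 9.61 ± 1.32 for STK17B, 0.363 ± 0.0419 for DAPK2 and 0.00327 for DAPK1. The order was the same in both groups, and no neighbors in it had overlapping ranges. It was also the same with the longest single transcript as the length.

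As a share of the summed length-scaled level of the 5 genes, DAPK2 made up 0.133% to 0.177% in the control group and 0.642% to 0.779% in the treated group. DAPK3 made up 51.2% to 56.5% and 50.9% to 62.6%, and the STK17 genes the remainder. These shares take the DAPK1 counts as they stand, with the limit given above for that gene.

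**Figure D2:**
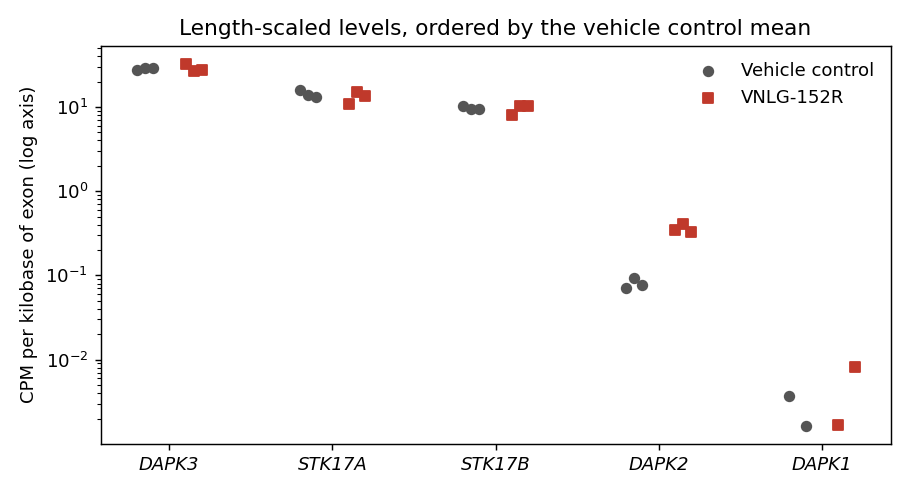
CPM per kilobase of exon (log axis) of the 5 genes in each library, ordered by the vehicle control mean, with vehicle controls as gray circles and VNLG-152R as red squares. The 2 libraries with 0 counts of DAPK1 cannot be drawn on a log axis. The order runs from DAPK3 (28.6 CPM per kilobase in controls) to DAPK1 (0.00178), and DAPK2 remains the fourth gene with VNLG-152R at 0.363.

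Next, genes that act with the kinases were described from lists written from general knowledge. Over all tested genes, edgeR called 642 genes higher in treated cells (3.76%) and 245 genes lower (1.43%), at an adjusted p under 0.05, and the counts in each list can be read against these shares.

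Among upstream regulators and binding partners, no gene passed the test with edgeR. Of 30 genes listed 28 were tested. Their median was -0.15 on the log2 scale, against -0.0024 over all tested genes, and 21 of the 28 had a negative value. The list as a whole was not tested. At an unadjusted p under 0.05, edgeR had 1 of the 28 higher and 7 lower, against 12.8% and 9.76% of all tested genes. DESeq2 called 1 higher and 0 lower at an adjusted p under 0.05, against 5.64% and 3.14% of all tested genes. The gene called by DESeq2 was MIB1, a ubiquitin ligase that acts on DAPK1, which had a value of 0.33 (adjusted p = 0.0523 with edgeR). STUB1, the chaperone-associated ubiquitin ligase CHIP, was at -0.25 (adjusted p = 0.129 with edgeR), and 42.4% of its exons lie under the antisense gene JMJD8. Without VNLG-152R replicate 1 both passed (0.36 and -0.33). After the correction for transcript length MIB1 was at 0.18 and STUB1 at -0.19, and neither passed (adjusted p = 0.239 and 0.249 with edgeR). With the replicate number as a block neither passed (adjusted p = 0.145 and 0.278 with edgeR). CALM2 and CALM3, which encode calmodulin, the activator of DAPK1 and DAPK2, were at -0.30 and -0.18 and did not pass. The 7 genes of 14-3-3 proteins, which bind phosphorylated DAPK2, were at -0.06 to -0.25 and did not pass either.

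Substrates of the kinases gave a similar count. Of 18 listed genes 15 were tested, none passed with edgeR, and the median log2 fold change was -0.04. At an unadjusted p under 0.05, 1 was higher and 3 lower (12.8% and 9.76% of all tested genes), and DESeq2 called 2 lower (3.14% of all tested genes), CDKN1A and MYL9. CDKN1A, which encodes the cell cycle inhibitor p21, was at 245 ± 12.2 CPM in controls and 191 ± 25.3 CPM with VNLG-152R, a log2 fold change of -0.36 (adjusted p = 0.0616 with edgeR), and passed without VNLG-152R replicate 1 (-0.43). MYL9, a regulatory light chain of myosin, was at -0.29 (adjusted p = 0.0937 with edgeR). BECN1, the autophagy protein beclin, was at -0.09, and RPTOR, the mTORC1 subunit that DAPK2 phosphorylates, at 0.04 (adjusted p = 0.552 and 0.883 with edgeR).

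Of the genes for other myosin light chain kinases, the myosin phosphatase and nonmuscle myosin II, 1 of 19 tested (21 listed) rose and none fell, with a median log2 fold change of 0.03. It was PPP1R12B, a targeting subunit of the myosin phosphatase, which rose from 10.6 ± 1.06 to 14.0 ± 0.451 CPM (SD, n = 3 each; log2 fold change 0.40, standard error 0.10, adjusted p = 0.0409 with edgeR). The call was lost after a correction for transcript length (0.15). It was also lost on leaving out control replicate 1 (0.32) or 3 (0.41), or treated replicate 2 (0.37) or 3 (0.42). The antisense gene SYT2 covers 10.0% of its exons. Without VNLG-152R replicate 1 the count was 2.

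Among other kinases of the calmodulin-dependent group, the nearest relatives of the family by sequence, 2 of 33 tested (40 listed) rose and none fell, with a median of 0.04. SPEG, a striated muscle kinase and 1 of the 2, rose from 32.6 ± 2.43 to 43.7 ± 6.47 CPM (SD, n = 3 each; log2 fold change 0.42, standard error 0.11, adjusted p = 0.0471 with edgeR). After the length correction no gene of the list was called, with SPEG at 0.24. The SPEG call was also lost when control replicate 1 (0.36), 2 (0.43) or 3 (0.47), or treated replicate 1 (0.32) or 2 (0.41), was left out. The count in the list was 0 on leaving out control replicate 1 or 3, or treated replicate 2, and 1 on leaving out treated replicate 1. CAMK2A had the largest value in the list, 1.04, which did not pass (standard error 0.37, adjusted p = 0.122 with edgeR). None of the 33 reached the value of DAPK2. Only 17 of the 17084 tested genes did, DAPK2 included, and the family was selected for this value, so the comparison carries no weight.

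Factors reported to act on DAPK genes were all tested, and 1 of 15 rose while none fell, with a median of 0.02. SMAD3, which carries TGF-beta signals to DAPK1, rose from 270 ± 13.2 to 378 ± 7.09 CPM (SD, n = 3 each; log2 fold change 0.48, standard error 0.08, adjusted p = 0.00525 with edgeR). It passed under each of the 12 alternatives. Of the 15 values 8 were positive and 7 negative. At an unadjusted p under 0.05, edgeR had 4 higher and 1 lower (12.8% and 9.76% of all tested genes). DESeq2 called 2 higher (5.64% of all tested genes). SP1 and CEBPB were at 0.21 and 0.20 and did not pass (adjusted p = 0.187 and 0.191 with edgeR). E2F1 and KLF6, reported as activators of DAPK2, were at -0.28 and -0.12 and did not pass (adjusted p = 0.149 and 0.446 with edgeR). Without VNLG-152R replicate 1 E2F1 was called as well.

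Genes of the death receptors and the interferon gamma receptor, signals in which DAPK1 acts, did not pass with edgeR in any of 15 cases tested (16 listed), with a median of 0.01. At an unadjusted p under 0.05, 1 was higher and 1 lower (12.8% and 9.76% of all tested genes), and DESeq2 called 1 higher (5.64% of all tested genes). The smallest p values belonged to IFNGR2 at 0.35 and to the ligand TNFSF10 (TRAIL) at -0.29 (adjusted p = 0.0729 and 0.125 with edgeR). The antisense gene TMEM50B covers 12.8% of the IFNGR2 exons. The TRAIL receptor genes TNFRSF10A and TNFRSF10B were at 0.10 and 0.18 and did not pass.

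**Figure D3:**
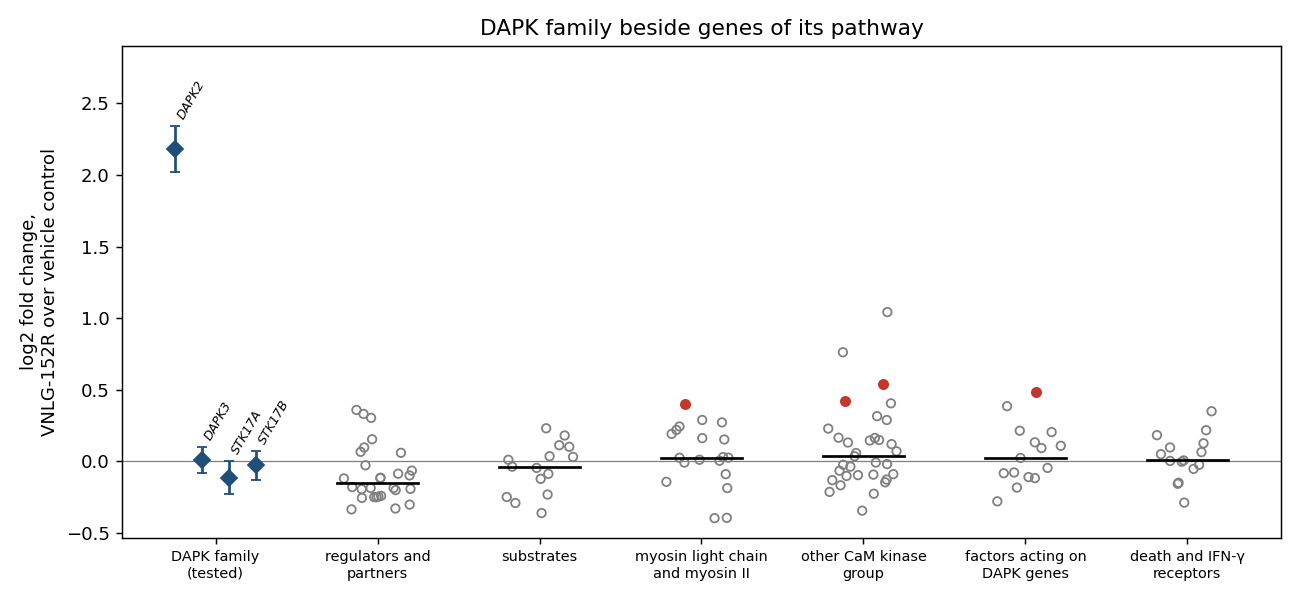
Log2 fold change of VNLG-152R over vehicle control (vertical axis) for the 4 tested members (blue diamonds, with the standard error) and for the tested genes of 6 lists (circles), where filled red circles passed an adjusted p under 0.05 with edgeR and black lines are list medians. DAPK2 at 2.18, the value for which the family was selected, lies above every listed gene. The called genes include PPP1R12B, SPEG and SMAD3.

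The surroundings of DAPK2 on chromosome 15 were then examined over 3 tested protein-coding genes on each side. HERC1, a large ubiquitin ligase gene that lies 73.1 kb beyond the 3′ end of DAPK2, was at 38.2, 56.0 and 45.8 CPM in controls and at 82.8, 83.1 and 68.3 CPM with VNLG-152R. The groups did not overlap. It rose from 46.7 ± 8.91 to 78.0 ± 8.47 CPM (SD, n = 3 each; log2 fold change 0.74, standard error 0.13, adjusted p = 0.00676 with edgeR), and it passed under each of the 12 alternatives, with 0.50 after the length correction. CIAO2A, 0.5 kb beyond the 5′ end, was at -0.21 (adjusted p = 0.428 with edgeR), and its groups overlapped. The sorting nexin genes SNX1 and SNX22 were at 0.07 and 0.06, USP3 at 0.10 and FBXL22, with 3 to 16 counts, at -0.39, and none of them passed. Leaving out treated replicate 1 gave -1.10 for FBXL22 and leaving out treated replicate 2 gave 0.04. Of the 6 neighbors 1 was called higher, against 3.76% of all tested genes.

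**Figure D4:**
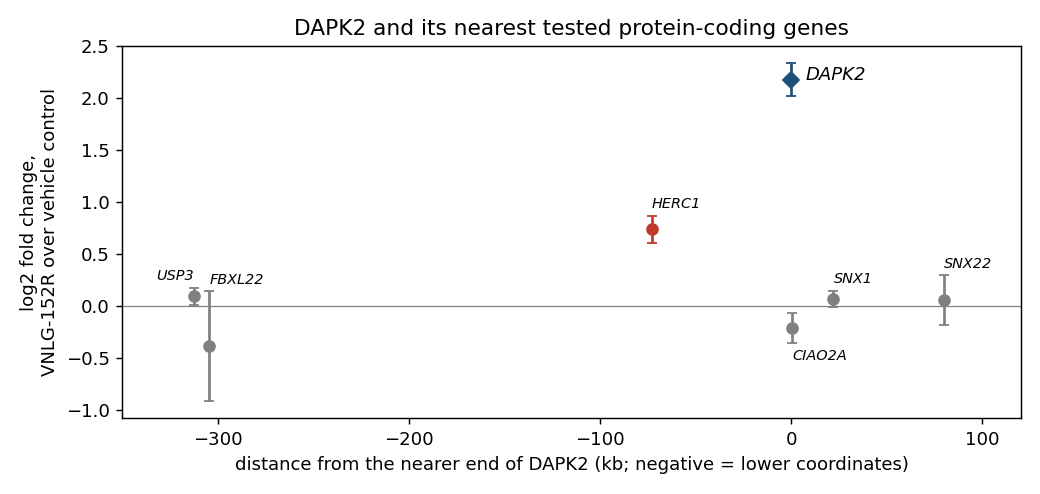
Log2 fold change (points) and standard error (whiskers) of DAPK2 (blue diamond) and the 3 nearest tested protein-coding genes on each side, against the distance from the nearer end of DAPK2 in kb. HERC1 (red, 0.74) passed the test with edgeR, the genes in gray did not, and DAPK2 at 2.18 was not tested.

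Of the 8 nearest tested genes around the other members, 1 was called higher and 1 lower, against 3.76% and 1.43% of all tested genes. TUT7, 1142.8 kb from DAPK1, was at 0.32 (adjusted p = 0.0423 with edgeR) and CTSL, on its other side, at 0.21 (0.2 with edgeR). The TUT7 call was lost after the length correction (0.27), and on leaving out control replicate 1 (0.29), 2 (0.37) or 3 (0.30), or treated replicate 2 (0.32) or 3 (0.32). MRPL54, 189.9 kb from DAPK3, was at -0.40 (adjusted p = 0.0414 with edgeR), lost after the length correction (-0.34) and on leaving out control replicate 1 (-0.34), 2 (-0.45) or 3 (-0.42), or treated replicate 1 (-0.32) or 3 (-0.41). EEF2, the elongation factor gene 4.9 kb from DAPK3, was at -0.02 and did not pass. HECW1 and COA1 beside STK17A were at 0.27 and 0.02, and DNAH7 and HECW2 beside STK17B at 0.66 and 0.28, and none of these 4 passed.

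Finally, the genes with the most similar pattern over the 6 libraries were listed for each tested member, by Pearson correlation of log2 CPM over 12511 genes with a symbol and a mean of at least 1 CPM. For DAPK2 these were ST3GAL5 (r = 0.998), IL1RAPL1 (r = 0.998) and ZBTB43 (r = 0.996), and 336 genes had an r above 0.95. ST3GAL5, which makes the ganglioside GM3, was at 12.7 to 13.0 CPM in controls and 19.6 to 21.0 CPM with VNLG-152R. For DAPK3 the genes were GHDC (0.998), PDCD11 (0.989) and EPHA2 (0.988), each with its highest level in VNLG-152R replicate 1. For STK17A they were MTX2 (0.996), TOMM20 (0.996) and GPN3 (0.994), and for STK17B ZMPSTE24-DT (0.997), SPTSSA (0.993) and PYROXD1 (0.992), with the lowest level of all 6 in VNLG-152R replicate 1. The 6 points of each correlation come from the same libraries for every gene, and the values are a description of the pattern.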

How the data were processed

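The authors sequenced strand-specific polyA libraries of MDA-MB-231 cells and deposited raw read counts per Ensembl gene for 3 vehicle control and 3 VNLG-152R samples. The submitters' processing notes name HISAT, HTSeq, DESeq and GRCh38. Their versions, the gene annotation and whether counting used strand were not stated. Symbols, for 42047 of 61552 identifiers, came from reference tables, and coordinates and lengths from GENCODE release 29. HTSeq's special classes were left out of library totals.

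All 6 libraries entered 1 fit in R 4.3.3, and genes were tested by quasi-likelihood in edgeR 4.0.16 (TMM, filterByExpr, Benjamini-Hochberg adjustment over 17084 genes, threshold 0.05). The biological coefficient of variation was 0.105 with 4 residual degrees of freedom. Standard errors of log2 fold changes were derived from the F statistics (size divided by square root of F). An exact permutation test of 3 against 3 cannot go below p = 0.1, so none was run. The fit was tested on simulated data. Correlations used log2(CPM + 0.25).

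The members and lists were chosen with earlier results of these data known, and the lists come from general knowledge. Named genes are the members, up to 5 called genes per list and direction or the 2 with the smallest p, the nearest tested protein-coding genes, and the 3 genes most similar to each member. CALM2, CALM3, the 14-3-3 genes, BECN1, RPTOR, CAMK2A, KLF6, E2F1, SP1, CEBPB, TNFRSF10A, TNFRSF10B, AATF, HSF1 and RPS6KA1 are outside this rule and were chosen after their values were seen. Alternatives were RLE size factors, no filter, DESeq2 1.42.0, a minimum mean of 1 CPM, the replicate number as a block, a lowess correction for transcript length (span 0.3), and leaving out each library. Motifs were searched on both strands of the 250 bases before each RefSeq start (GRCh38.p14), found for all 5 members. Protein sequences were not used here, and values of some listed genes are not reported here.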

Additional observations from a re-analysis of the deposited data

How the results depend on the processing

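The log2 fold change of DAPK2 was 2.06 to 2.29 over all 12 alternatives, lowest after the correction for transcript length. The sign turned for 3 members when a library was left out, with ranges of -0.0766 to 0.0631 for DAPK3, -0.221 to 0.0092 for STK17A and -0.087 to 0.0856 for STK17B. Among neighbors that were not called, the sign also turned for FBXL22 (-1.10 to 0.0424), SNX22 (-0.121 to 0.196), EEF2 (-0.153 to 0.0953) and COA1 (-0.0674 to 0.116) when a library was left out, and for SNX1 (-0.0502) and EEF2 (0.0004) after the length correction. The order of the 5 length-scaled levels did not change. Changed genes numbered 887, against 1539 with no expression filter, 1501 with DESeq2 and 264 (without control replicate 3) to 948 (without VNLG-152R replicate 1) when a library was left out. With no expression filter the lists held 2 called genes among regulators, 1 among substrates, 2 among myosin genes, 5 among other calmodulin-dependent kinases and 2 among factors acting on DAPK genes. In that setting 1056 of all 32260 genes tested were called higher and 483 lower. With DESeq2 the counts were 1, 2, 1, 4 and 2, and 1 among death and interferon gamma receptors. Over all tested genes DESeq2 called 5.64% higher and 3.14% lower. With a minimum mean of 1 CPM, 1 regulator was called. The length correction left 0 myosin genes and 0 other kinases. Leaving out a library gave 0 to 2 regulators, 0 to 1 substrates, 0 to 2 myosin genes, 0 to 2 other kinases and 1 to 2 factors. The cause of these shifts was not tested.

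Deviations from the group means correlated negatively between samples of the same replicate number (r from -0.19 to -0.11). Between samples of different numbers r was 0.01 to 0.15. With 3 samples per group, these values cannot tell whether samples of the same number shared a day or passage. With the replicate block 397 genes were called, 0 of them myosin genes or other calmodulin-dependent kinases. TUT7 (adjusted p = 0.169 with edgeR) and MRPL54 (0.119) were not called, and DAPK2 was at 2.18. No control sample correlated best with the treated sample of its own number. DAPK2 had 59 to 427 counts per library, whereas 0 to 6 counts of DAPK1 allow no comparison.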
